A study of Homo sapiens with 6 samples.

Results

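Metallothioneins and the transcription factor that controls their genes were examined in AC16 cells cooled for 6 h. The 7 genes were MT1E, MT1F, MT1G, MT1M, MT1X, MT2A and MTF1, of 22411 genes that have a feature with 1 symbol on the array. A member was taken by the symbol that the platform annotation gives to a feature, and each of the 7 had 1 such feature. RNA was measured on 6 Affymetrix arrays, 3 of AC16 cells held for 6 h at 28 °C (hypothermia) and 3 of AC16 cells held at 37 °C over the same time (control), all in the same serum-containing medium with 5% CO2. AC16 is an established human line of ventricular origin, made by fusing adult heart cells with transformed fibroblasts, so it is a dividing line and not a resting cardiomyocyte. Nothing in the sources states that the arrays within a group came from different cultures, and the p-values therefore rest on a spread between arrays that may be technical only. Values are log2 signals made by RMA, a method that corrects background, brings arrays to one scale and combines the probes of a feature. Levels of different features are not comparable on this scale, while signals of the same feature at 28 °C and 37 °C are.

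Metallothioneins are small cysteine-rich proteins that bind zinc and copper in the cell and take up cadmium. MTF1 is a zinc-finger protein that senses free zinc, and under zinc or cadmium it binds metal response elements in front of the metallothionein genes and switches them on. Glucocorticoids and oxidants are also known to raise metallothionein mRNA, and in rodents so is exposure to cold. Most human metallothionein genes lie side by side on chromosome 16 and arose by duplication, and MTF1 lies on chromosome 1. Transcripts of the MT1 genes are nearly alike, so the features of this family can share hybridization and the values of single MT1 genes are uncertain to that extent.

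The metal response elements are shown first, because they are the sites through which MTF1 acts on the metallothionein genes. The RefSeq table of promoters (GRCh38.p14) held 3 of the 7 members, MT2A, MT1X and MTF1. The 250 bases before the start of each gene are printed 5′ to 3′ on the strand of the gene, and capitals mark each match to the core of the element, TGCACNC or TGCGCNC, on either strand. The stretch before MT2A lies at chr16:56608334-56608583 and that before MT1X at chr16:56682220-56682469, both on the plus strand. The stretch before MTF1 lies at chr1:37859593-37859842 on the minus strand.
MT2A: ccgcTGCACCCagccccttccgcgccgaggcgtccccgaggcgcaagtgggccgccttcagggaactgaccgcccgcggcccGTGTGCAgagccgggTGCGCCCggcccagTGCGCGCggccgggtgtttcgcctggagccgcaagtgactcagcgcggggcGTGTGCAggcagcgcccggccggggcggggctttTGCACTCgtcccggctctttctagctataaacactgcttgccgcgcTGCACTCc
MT1X: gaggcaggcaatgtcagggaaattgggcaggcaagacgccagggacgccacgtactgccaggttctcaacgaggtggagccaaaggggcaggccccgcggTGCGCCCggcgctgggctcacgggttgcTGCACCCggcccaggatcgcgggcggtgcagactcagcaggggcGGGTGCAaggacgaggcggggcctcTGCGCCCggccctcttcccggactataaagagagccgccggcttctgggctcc
MTF1: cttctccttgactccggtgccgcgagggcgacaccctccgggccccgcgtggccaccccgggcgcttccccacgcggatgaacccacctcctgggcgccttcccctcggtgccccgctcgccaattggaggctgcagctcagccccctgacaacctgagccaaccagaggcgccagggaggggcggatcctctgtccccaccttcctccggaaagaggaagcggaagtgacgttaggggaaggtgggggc
The stretch before MT2A held 7 matches and that before MT1X held 4, while none was found before MTF1. Of 35114 promoters searched in the same way, 24.8% held at least 1 match, 0.37% at least 4 and 0.0313% at least 7. Of the metallothionein genes outside the list of 7, only MT1H, MT1B and MT4 were among the promoters searched. MT1H had 8 matches, and MT1B and MT4 had 3 each. A match is a description of letters and not a measured binding site, and no match says only that these letters are not in this window. MT1X and MT1H each had a match on the other strand at -78 and one on the gene strand at -53, counted from the gene start, and in MT1B they lay at -79 and -53. The matches before MT2A reached from -246 to -2.

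**Figure D1:**
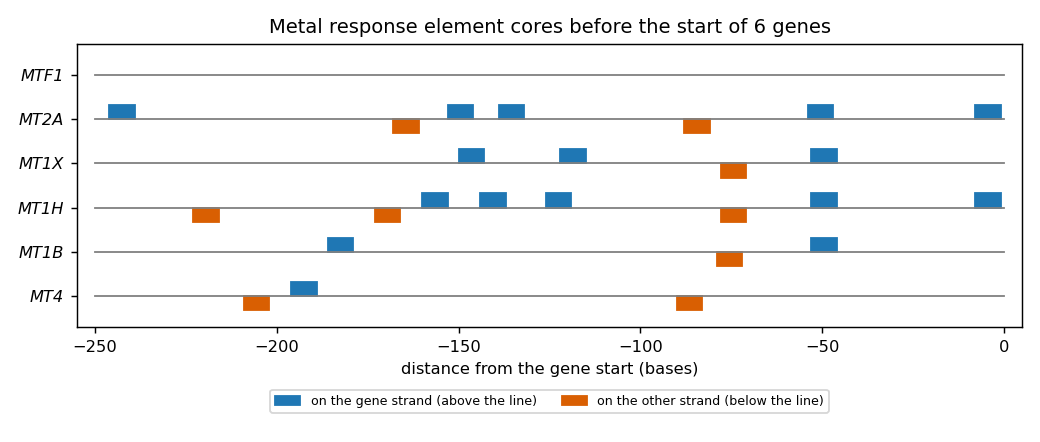
Matches to the core of the metal response element in the 250 bases before the start of MTF1 and 5 metallothionein genes, by distance from the start in bases (blue, on the gene strand; orange, on the other strand). MT2A has 7 matches and MT1X 4, and MTF1 has none.

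MTF1 fell at 28 °C. Its log2 RMA signal was 6.79, 6.90 and 6.81 in hypothermia replicates 1, 2 and 3, against 7.57, 7.45 and 7.35 in control replicates 1, 2 and 3. The highest array at 28 °C lay below the lowest array at 37 °C. In bulk RNA, fewer cells with the transcript and less transcript per cell cannot be told apart. The mean was 6.83 ± 0.0586 at 28 °C and 7.46 ± 0.112 at 37 °C (SD, n = 3 each). The log2 difference, 28 °C minus 37 °C, was -0.62 (standard error 0.0774, 95% confidence interval -0.80 to -0.45, adjusted p = 0.0133 from limma), which is 0.649-fold, with an interval of 0.573 to 0.734. The adjusted p comes from a fit over all 70523 features of the array. Of the 7 members only MTF1 passed an adjusted p under 0.05, a rule by which 0.818% of all features passed, 0.591% lower and 0.227% higher at 28 °C. Groups of arrays that did not overlap were found in 1 of 7 members and in 17.9% of all features, and 8.49% of all features were lower at 28 °C in this way. Of the 22411 genes, 3093 were lower with no overlap. Among the 22411 genes, 91 had a more negative difference than MTF1, and 173 were called lower in all.

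The call of MTF1 was close to the threshold when arrays were removed. Without any one of the hypothermia arrays, or without control replicate 1 or 2, its adjusted p from limma was between 0.0532 and 0.0753, and the difference was between -0.66 and -0.57. Without control replicate 3 the difference was -0.68 and the adjusted p was 0.0185. The array also carries 23 background features, which match no transcript and differ in base composition. The mean of the 11 brighter ones was 6.39 to 6.49 on the arrays at 28 °C and 6.10 to 6.47 on those at 37 °C. With that mean as a covariate the difference of MTF1 was -0.56 (adjusted p = 0.0935 from limma). The mean signal of MTF1 was below that of 4 of the 23 background features.

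The 6 metallothioneins did not pass the test in either direction, and each had groups that overlapped. None of them had an unadjusted p under 0.05, beside 11.5% of all features, and none passed in the random variance model, which the study's methods name for the arrays and in which the variance of each feature borrows from that of all others. The largest measured difference among them was -0.09 and the 95% confidence intervals of all 6 lay between -0.23 and 0.19 on the log2 scale. The median log2 difference of the 6 was -0.0012, beside 0.0262 over all 70523 features, and the median size of the difference was 0.0326, beside 0.0805. The mean signal over the 6 genes was 7.91 to 7.99 on the arrays at 28 °C and 7.94 to 7.96 on those at 37 °C. The plot of signals by array shows MTF1 parted by temperature and the groups of each metallothionein overlapping.

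**Figure D2:**
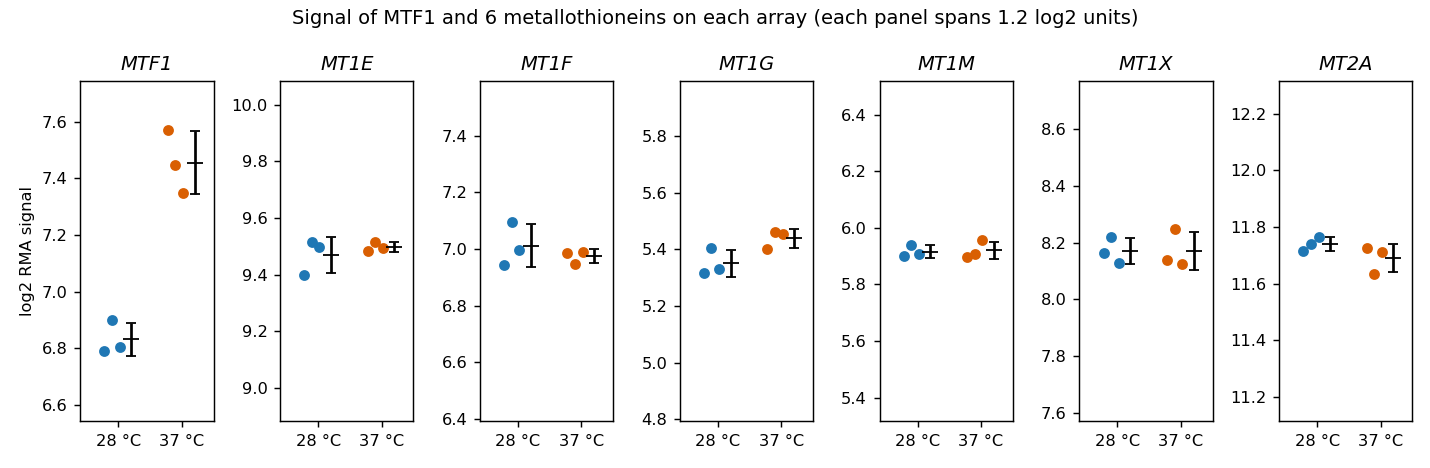
The log2 RMA signal of MTF1 and 6 metallothioneins on each array, 28 °C left (blue) and 37 °C right (orange), with the mean and SD of 3 arrays beside the points; all panels have the same height in log2 units. MTF1 lies between 6.79 and 6.90 at 28 °C and between 7.35 and 7.57 at 37 °C, and the groups overlap in every other panel.

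MT2A, the main metallothionein of most human cells, had signals of 11.72, 11.74 and 11.77 in hypothermia replicates 1, 2 and 3, against 11.72, 11.64 and 11.71 in control replicates 1, 2 and 3. The hypothermia arrays lay just above or among the controls. The log2 difference was 0.05 (95% confidence interval -0.09 to 0.19, adjusted p = 0.793 from limma), with means of 11.74 ± 0.0253 at 28 °C and 11.69 ± 0.0483 at 37 °C (SD, n = 3 each). MT2A was above all of the 23 background features of the array, whose means ran from 1.76 to 10.9 with the probe composition.

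MT1X, the other member with printed elements, had 8.16, 8.22 and 8.13 in hypothermia replicates 1, 2 and 3, against 8.14, 8.25 and 8.12 in control replicates 1, 2 and 3. The lowest and the highest of these 6 values were both controls. Its log2 difference was 0.0021 (95% confidence interval -0.15 to 0.16, adjusted p = 0.995 from limma). MT1E had 9.40, 9.51 and 9.50 at 28 °C, against 9.48, 9.51 and 9.49 at 37 °C in replicates 1, 2 and 3, a log2 difference of -0.03 (95% confidence interval -0.17 to 0.12, adjusted p = 0.897 from limma). In MT1E a single hypothermia array, replicate 1, lay below the others. MT1F had 6.944, 7.095 and 6.997 at 28 °C, against 6.986, 6.946 and 6.991 at 37 °C in replicates 1, 2 and 3, with a log2 difference of 0.04 (95% confidence interval -0.12 to 0.19).

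MT1G came nearest to a separation of the groups. It had 5.31, 5.40 and 5.33 in hypothermia replicates 1, 2 and 3, against 5.40, 5.46 and 5.45 in control replicates 1, 2 and 3. Hypothermia replicate 2 lay at the level of control replicate 1, and the other hypothermia arrays were below every control. The log2 difference was -0.09 (standard error 0.0619, 95% confidence interval -0.23 to 0.05, unadjusted p = 0.192 and adjusted p = 0.627 from limma). MT1M had 5.90, 5.94 and 5.91 at 28 °C, against 5.90, 5.91 and 5.96 at 37 °C, a log2 difference of -0.0045. For MT1G and MT1M, 7 and 6 of the 23 background features were brighter, and whether they lay above background was not determined.

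Hypothermia replicate 2 had the highest of the 3 hypothermia signals in 5 of the 5 MT1 genes, and hypothermia replicate 1 had the lowest in 4 of them. Among the controls, replicate 2 was highest in 3 and replicate 3 in the other 2. How far the MT1 features share hybridization was not tested.

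The change of each member was set against that of MT2A within each array. Levels of different features were not compared, and whether different features show the same change in RNA at the same size was not tested. The log2 ratio of MTF1 to MT2A was -4.93, -4.84 and -4.96 in hypothermia replicates 1, 2 and 3, against -4.15, -4.19 and -4.36 in control replicates 1, 2 and 3. The groups did not overlap, and the difference of -0.67 had p = 0.1 in a two-sided exact permutation test over the 6 arrays, the smallest p that this design allows, and adjusted p = 0.3 over the 6 genes compared. MT1G also had no overlap in this ratio, with a difference of -0.14 (exact permutation p = 0.1, adjusted p = 0.3). For MT1E, MT1F, MT1M and MT1X the difference was between -0.08 and -0.01, with exact permutation p-values from 0.2 to 0.8 and adjusted values from 0.4 to 0.8.

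No other gene of the metallothionein family passed the test. Of 11 other genes and pseudogenes listed, 10 had a feature, and none was higher or lower at an adjusted p under 0.05 from limma, at an unadjusted p under 0.05 or in the random variance model. Their log2 differences ran from -0.03 in MT1H to 0.11 in MT1CP, with a median of 0.0786, beside 0.0262 over all features. The mean was higher at 28 °C in 9 of the 10, and in 41998 of all 70523 features. MT1CP, a pseudogene, had 6.97, 6.94 and 6.77 in hypothermia replicates 1, 2 and 3, against 6.74, 6.85 and 6.74 in control replicates 1, 2 and 3 (adjusted p = 0.614 from limma). The groups of MT1CP overlapped. The pseudogenes MT1IP and MT1DP were the 2 whose groups did not, at 0.11 and 0.07, where 9.38% of all features were higher at 28 °C with no overlap. MT1IP and MT1DP had mean signals under 5. The brighter background features had a median log2 difference of 0.18, and with their mean as a covariate MT1CP had 0.18 (adjusted p = 0.589 from limma). MT3, the growth inhibitory metallothionein of brain, had a log2 difference of 0.11 (95% confidence interval -0.06 to 0.27).

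**Figure D3:**
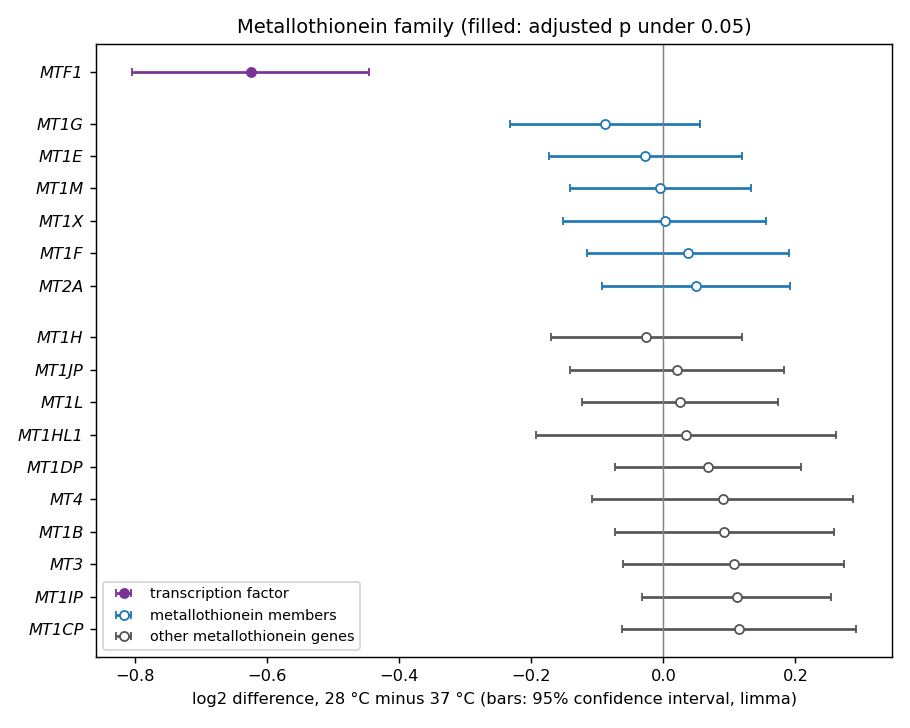
The log2 difference, 28 °C minus 37 °C, of MTF1 (purple), the 6 metallothionein members (blue) and 10 other metallothionein genes and pseudogenes (grey), with 95% confidence intervals from limma; a filled point has an adjusted p under 0.05. MTF1 lies at -0.62, and the metallothioneins lie between -0.09 and 0.11 with intervals that all include 0.

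Other targets of MTF1 were measured beside the metallothioneins. Of 8 such genes, some of them known as targets from mouse, limma called none and the random variance model called none, while 2 were higher at an unadjusted p under 0.05, a rule that 5.41% of all features met in this direction. Those 2 were PGF, which encodes placental growth factor, and NDRG1, a stress-induced gene. PGF had 6.44, 6.49 and 6.43 in hypothermia replicates 1, 2 and 3, against 6.14, 6.00 and 6.22 in control replicates 1, 2 and 3. The groups did not overlap, and the log2 difference was 0.33 (95% confidence interval 0.16 to 0.51, adjusted p = 0.123 from limma). NDRG1 had a log2 difference of 0.23 (adjusted p = 0.202). SLC30A1, the zinc exporter of the cell surface and a well-known MTF1 target, had 6.72, 6.59 and 6.66 at 28 °C, against 6.72, 6.70 and 6.54 at 37 °C, a log2 difference of 0.0066 (95% confidence interval -0.17 to 0.18). SLC39A10, a zinc importer that MTF1 represses in mouse and fish, had -0.04, and GCLC, a subunit of the enzyme that starts glutathione synthesis, had 0.0135. The median of the 8 was 0.01, beside 0.0262 over all features. PGF passed the threshold when only features with 1 symbol were tested or with array weights (adjusted p down to 0.0349 from limma). It had 0.25 (adjusted p = 0.344) with the brighter background as a covariate, and its adjusted p was up to 0.389 with 1 array left out.

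Zinc exporters of the SLC30 family move zinc out of the cytosol, into vesicles, the Golgi or the medium. Neither limma nor the random variance model called any of the 10 measured, but 4 had an unadjusted p under 0.05, all with a lower mean at 28 °C. These 4, SLC30A5, SLC30A6, SLC30A7 and SLC30A9, had groups that did not overlap. Over all features, 6.08% were lower at an unadjusted p under 0.05 and 8.49% were lower with no overlap. Of the 22411 genes with 1 symbol, 2083 were lower at an unadjusted p under 0.05 from limma and 3093 were lower with no overlap. SLC30A5 and SLC30A6 form a transporter of the early secretory pathway and SLC30A7 serves the Golgi, while SLC30A9 is mitochondrial. SLC30A6 had 7.26, 7.24 and 7.13 in hypothermia replicates 1, 2 and 3, against 7.58, 7.70 and 7.43 in control replicates 1, 2 and 3, and control replicate 3 was the nearest to the cooled cells. Its log2 difference was -0.36 (standard error 0.0858, 95% confidence interval -0.56 to -0.16, adjusted p = 0.142 from limma). It passed when only features with 1 symbol were tested (adjusted p = 0.045 from limma) or with array weights (adjusted p = 0.0454). With the brighter background as a covariate it was -0.23 (adjusted p = 0.335). SLC30A5, SLC30A7 and SLC30A9 had log2 differences of -0.30, -0.30 and -0.23. The median of the 10 exporters was -0.08.

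Zinc importers of the SLC39 family bring zinc into the cytosol. Of 14 measured, none was higher or lower in limma at an adjusted or an unadjusted p under 0.05, or in the random variance model, and their median was 0.0235. The largest measured difference was that of SLC39A4, an importer best known from the intestine, which had 6.21, 6.19 and 6.31 in hypothermia replicates 1, 2 and 3, against 6.08, 6.00 and 6.24 in control replicates 1, 2 and 3. These groups overlapped, and the log2 difference was 0.13 (95% confidence interval -0.06 to 0.32, adjusted p = 0.578 from limma). With the brighter background as a covariate SLC39A4 had 0.0113, and with 1 array left out it had 0.0789 (without control replicate 2) to 0.202 (without control replicate 3). SLC39A9 and SLC39A6 had -0.13 each.

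Copper is the other physiological metal of metallothioneins. Of 11 genes of copper handling, limma and the random variance model each called none, and their median was -0.13. At an unadjusted p under 0.05 from limma, 1 was lower at 28 °C (ATP7A), beside 6.08% of all features and 2083 of the 22411 genes with 1 symbol. The groups did not overlap in 6 of the 11, all lower at 28 °C, against 8.49% of all features and 3093 of the 22411 genes with 1 symbol. The 6 were ATP7A, a copper-exporting ATPase, SLC31A1, the main copper importer, SOD1, a copper and zinc enzyme, and COX11, COX17 and SCO1. COX11, COX17 and SCO1 deliver copper to cytochrome oxidase. ATP7A had 3.88, 3.80 and 3.80 in hypothermia replicates 1, 2 and 3, against 4.04, 4.09 and 3.91 in control replicates 1, 2 and 3. Its log2 difference was -0.19 (95% confidence interval -0.35 to -0.02, adjusted p = 0.367 from limma), and the other 5 lay between -0.17 and -0.13. With the brighter background as a covariate ATP7A had -0.11 (adjusted p = 0.707 from limma).

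**Figure D4:**
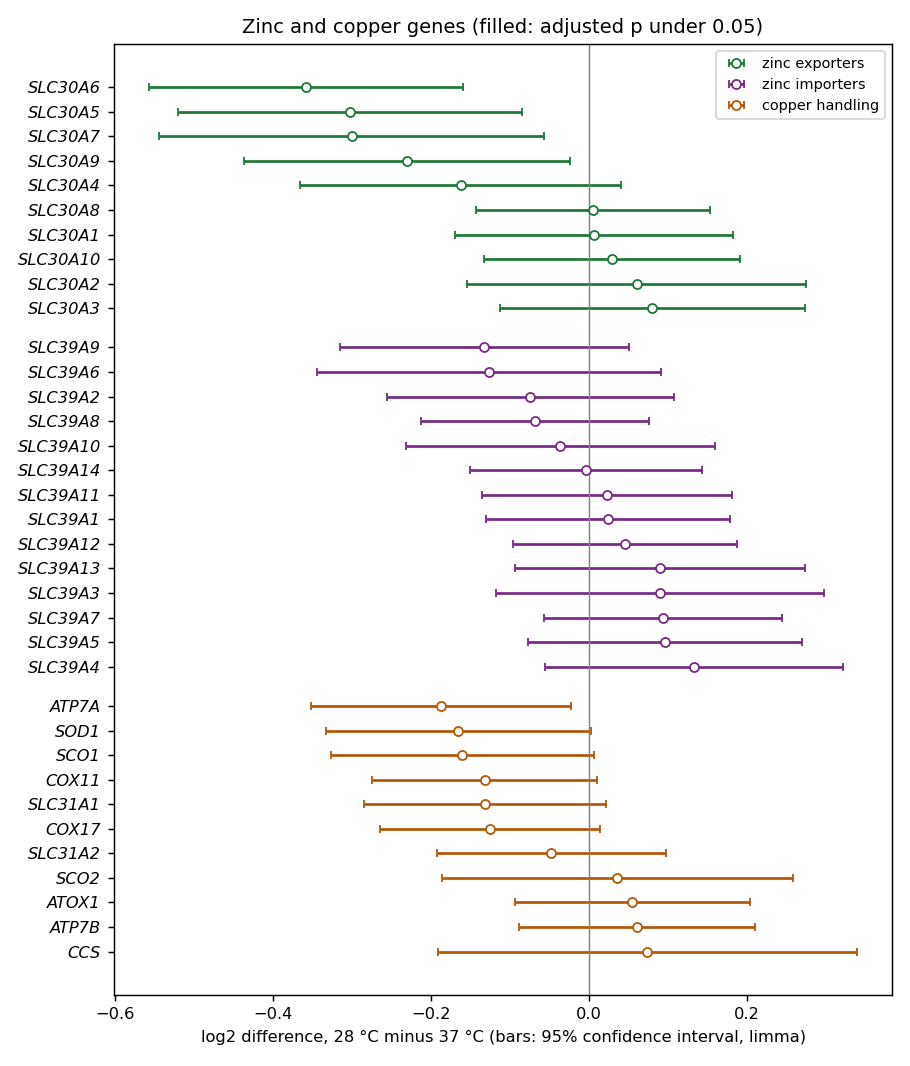
The log2 difference, 28 °C minus 37 °C, of 10 zinc exporters (green), 14 zinc importers (purple) and 11 genes of copper handling (brown), with 95% confidence intervals from limma; all points are open because none has an adjusted p under 0.05. SLC30A6 at -0.36 is the lowest, and SLC39A4 at 0.13 is the highest of the importers.

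Glucocorticoid-induced genes were measured because the hormone receptor also acts on MT2A and MT1X. Of 9 genes, the receptor included, 2 were higher and none was lower at an adjusted p under 0.05 from limma, beside 0.227% of all features higher. At an unadjusted p under 0.05 from limma, 4 were higher (DUSP1, PER1, ERRFI1 and KLF9), beside 5.41% of all features. The mean was higher at 28 °C in 8 of the 9 genes, and in 41998 of all 70523 features. The count of 2 fell to 1 when any hypothermia array or control replicate 1 was left out and with the brighter background as a covariate, to 0 when each feature was tested by itself, and reached 4 when dimmer features were dropped, with features of 1 symbol or with array weights. DUSP1, a phosphatase of MAP kinases, had 8.53, 8.54 and 8.54 in hypothermia replicates 1, 2 and 3, against 7.77, 7.62 and 7.68 in control replicates 1, 2 and 3. It rose 1.80-fold (log2 difference 0.85, adjusted p = 0.00262 from limma). PER1, a clock repressor, rose 1.49-fold (log2 difference 0.58, adjusted p = 0.0144 from limma), and it passed only without control replicate 2 or 3 when 1 array was left out (adjusted p up to 0.0762). With the brighter background as a covariate PER1 had 0.50 (adjusted p = 0.082 from limma). ERRFI1 had a log2 difference of 0.54 (adjusted p = 0.0649 from limma) and KLF9 had 0.46 (adjusted p = 0.0689 from limma). The groups of ERRFI1 and of KLF9 did not overlap. FKBP5, a widely used target gene of the receptor, had -0.14 (95% confidence interval -0.29 to 0.01), and NR3C1, the receptor itself, had 0.02. Both DUSP1 and PER1 also answer to other stimuli.

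The genes whose profile over the 6 arrays was most like that of MTF1 were MTNAP1, OLR1 and ZBTB40. Likeness was the root mean square difference between signals centred on the mean of each gene, over 6 arrays and 22404 genes, and it was 0.0415, 0.0431 and 0.044 on the log2 scale. MTNAP1 encodes a protein of mitochondrial nucleoids, OLR1 a receptor of oxidised LDL, and ZBTB40 a zinc-finger protein. MTNAP1 had 5.46, 5.53 and 5.54 in hypothermia replicates 1, 2 and 3, against 6.26, 6.15 and 6.11 in control replicates 1, 2 and 3. In these 3 genes and in MTF1, control replicate 1 was the highest of the 6 arrays. The 3 genes were picked for this profile, so their log2 differences of -0.66, -0.59 and -0.69 are a description.

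Markers of the cell type were checked on the same arrays. Among 12 cardiomyocyte markers, NPPB, the gene of a natriuretic peptide, had a mean of 9.12 at 28 °C and 9.15 at 37 °C. The myosin genes MYH6 and MYH7 had 4.20 and 4.61 at 28 °C and 4.11 and 4.49 at 37 °C, and PLN had 2.03 at 28 °C and 2.09 at 37 °C, so their presence was not determined. The fibroblast markers VIM and FN1 had 10.97 and 11.10 at 28 °C and 10.98 and 11.05 at 37 °C. COL1A1, COL1A2, THY1 and PDGFRB had 10.60, 8.15, 8.19 and 7.23 at 28 °C and 10.46, 8.11, 8.15 and 7.14 at 37 °C. DCN, LUM and POSTN were dimmer, with 2.98, 3.51 and 4.36 at 28 °C and 3.04, 3.47 and 4.39 at 37 °C. The presence of DCN, LUM and POSTN was not determined either. None of 12 cardiomyocyte, 9 fibroblast, 5 endothelial and 7 leukocyte markers passed in limma. At an unadjusted p under 0.05, 1 cardiomyocyte marker was higher (NPPA, log2 difference 0.23), beside 5.41% of all features in this direction.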

How the data were processed

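Total RNA of AC16 cells was measured on 6 arrays, 3 at 28 °C and 3 at 37 °C. The deposited values are log2 signals, which the authors computed by RMA (named in the processing notes of the submitters). The version of RMA is not given in the sources used here. All values were used as deposited. The number of arrays limits the precision.

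A model with temperature alone was fitted to each of 70523 features by lmFit and eBayes of limma 3.58.1 (R 4.3.3). Benjamini-Hochberg adjustment covered all features, and an adjusted p under 0.05 was the threshold. Features without a single symbol stayed in the fit and are not named. Symbols were updated through RefSeq (GRCh38.p14). The feature with the highest mean stood for a gene. MT1A was not analysed here.

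The members and lists were chosen with earlier results of these data known. The named genes were all members, every list gene past the threshold or, with none, the one with the largest difference, and the 3 genes closest to MTF1 in profile. Other list genes were named after their values were seen. Alternatives were quantile normalization, centring on the median, dropping features below the 25th or the 50th percentile of mean signal, features with 1 symbol, an intensity trend, the random variance model of the methods, an equal-variance test of each feature by itself, array weights, the brighter background as a covariate, the replicate number as a block, other thresholds and leaving out each array. The fits were tested on simulated data made of independent normal values. That simulation held no array background and no shared hybridization, so it does not test either.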

Additional observations from a re-analysis of the deposited data

How the results depend on the processing

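The log2 difference of MTF1 stayed negative in all 11 alternatives that refit the values, between -0.67 and -0.56, and its adjusted p was between 0.00291 and 0.185. It was past the threshold in 9 of them. MTF1 missed it with an equal-variance test of each feature by itself, which shares no variance between features (adjusted p = 0.185), so that 0 members were lower, and with the brighter background as a covariate, again with 0 members lower. Leaving out 1 array gave 0 to 1 members lower. No member was higher in any alternative. The 6 metallothioneins gave 102 values under the alternatives, between -0.12 and 0.08, and 0 of them were past the threshold (lowest adjusted p 0.415). In 10 the sign changed, all close to 0. MT1E was 0.0308 after quantile normalization, MT1X -0.0343 after centring on the median and MT1M 0.011 with array weights. With 1 array left out MT1E ranged from -0.0500 to 0.0082, MT1F from -0.0038 to 0.0713, MT1M from -0.0169 to 0.0132 and MT1X from -0.0229 to 0.0409.

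Over all features, 160 were higher and 417 lower. There were 249 and 628 when the dimmer features, below the 50th percentile, were dropped, 379 and 1107 with array weights, 66 and 105 with the brighter background as a covariate, 308 and 775 at an adjusted p under 0.1, and 0 and 0 with the test of each feature by itself. The random variance model, which the study used for its arrays, called 172 higher and 447 lower, with MTF1 among the lower (adjusted p = 0.0121). With only the 23781 features of 1 symbol, 242 were higher and 582 lower. This fit and the fit without dimmer features tested fewer features, so their counts are not out of the same total. Leaving out 1 array gave 60 to 214 higher and 112 to 799 lower. Of 228 counts of the gene lists under the alternatives, 214 stayed within 1.5 times the count given above. Nearly all of these were counts of 0 that stayed 0. Only the count of glucocorticoid-induced genes called higher, 2, was above 0 in the main fit. It stayed within 1.5 times in 7 of 13 alternatives and in 2 of 6 fits with 1 array left out. Each gene had 1 feature among the members, so no other feature could be tried.

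The labels number the replicates and do not say whether same-numbered arrays were paired. Same-numbered arrays had deviations correlated at -0.0817, 0.114 and 0.215 for replicates 1, 2 and 3. Arrays with different numbers had correlations from -0.25 to 0.131. With so few arrays these values cannot decide whether there was a pairing. With the replicate block 0 members were higher and 1 was lower, MTF1 with adjusted p = 0.0407, and 122 features were higher and 304 lower. Array background cannot be measured per gene here, which limits what MTF1 and the dimmer metallothionein features can show.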

Other observations

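The genes beside MTF1 on chromosome 1 and beside the metallothionein cluster on chromosome 16 were looked at after the values of the members had been seen. INPP5B, a phosphoinositide phosphatase gene next to MTF1, had 5.52, 5.46 and 5.50 in hypothermia replicates 1, 2 and 3, against 5.67, 5.69 and 5.69 in control replicates 1, 2 and 3. The groups did not overlap, and the log2 difference was -0.19 (95% confidence interval -0.33 to -0.05, adjusted p = 0.26 from limma). C1orf122, on the other side of MTF1, had 0.12 (adjusted p = 0.567), so neither neighbour passed the test.

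BBS2, a ciliary gene before the metallothionein cluster, had a log2 difference of -0.29 (95% confidence interval -0.51 to -0.07, adjusted p = 0.299 from limma), with no overlap between 5.75, 5.61 and 5.52 in hypothermia replicates 1, 2 and 3 and 5.85, 6.07 and 5.81 in control replicates 1, 2 and 3. NUP93, a nuclear pore gene after the cluster, had -0.02 (95% confidence interval -0.17 to 0.13). INPP5B and BBS2 were the neighbours without overlap, and 8.49% of all features and 3093 of the 22411 genes were lower at 28 °C in this way. Whether the differences beside MTF1 and beside the cluster are local was not tested.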
